A study of Rattus norvegicus with 9 samples.

Results

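The nuclear encoded subunits of the mitochondrial respiratory chain were examined in peripheral blood mononuclear cells (PBMC, the lymphocytes and monocytes of blood) from 5 cafeteria-fed and 4 chow-fed rats. Members were taken by the gene name that the array files give a probe: names beginning with Nduf, Sdh (a to d), Uqcr, Cox4 to Cox8 or Atp5, and the names Cyc1 and Cycs, without probes on the mitochondrial chromosome. The rule found 86 of 41012 probes, under 72 of 35658 gene names. Of these names, 67 were subunits or cytochrome c and the 5 that were not subunits are described apart. The 4 of these 5 that could be tested stay in the counts, medians and correlations over all 71 tested names. The rule itself uses no measured value, but it was set with earlier results of these data known.

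All animals were male Wistar rats aged 6 months. The cafeteria group had energy-dense, fatty cafeteria foods on top of chow over 4 months that began at 2 months of age, a model of obesity through overeating. The control group ate only standard chow over that time, and the authors dropped 1 more control animal whose RNA was scarce. Blood was drawn from fed animals, PBMC were separated on Ficoll, and the RNA of each animal (Cy5) was hybridised on 1 array beside a pool of the RNA of all groups (Cy3). A value below is the log2 ratio of the animal's signal over that pool, so that it compares animals for 1 gene and does not rank genes. Every array had the animal in the same dye, so a ratio away from 0 on all arrays can be a dye effect. Arrays are numbered as in the labels, 1, 4, 7, 10 and 13 in the cafeteria group and 1, 4, 7 and 13 in the control group, and lists of values keep that order.

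The respiratory chain lies in the inner mitochondrial membrane. Complex I takes electrons from NADH and complex II takes them from succinate, and both hand them to ubiquinone, from which complex III passes them to the carrier cytochrome c and complex IV to oxygen. Protons pumped on the way drive complex V, the ATP synthase. Most subunits are encoded in the nucleus and a few on mitochondrial DNA, so that both genomes have to supply their parts, and resting lymphocytes make much of their ATP this way.

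Promoters of nuclear subunits are known for binding sites of NRF-1, of ETS family factors such as GABP (also called NRF-2) and of YY1, and a few are printed here to show the genes whose transcripts were measured. RefSeq promoters (build GRCr8, 250 bases before to 50 after the annotated start) were matched for 57 of the 67 subunit genes. The letters searched on both strands were GCGCA and GCGC with any 1 base between them for NRF-1, CCGGAAG for ETS factors and AAGATGGC for YY1. The NRF-1 letters were in 13 of 57 promoters (22.8%, against 4.71% of 27457 rat promoters of the same length). The ETS letters were in 17 (29.8%, against 9.22%), and the YY1 letters in 12 (21.1%, against 3.44%). At least 1 of the 3 was in 34 of the 57, and matches overlapped each other in 1 promoter, that of Ndufa11. These promoters also held more CpG dinucleotides, with a median of 20 against 7, and the shares were not adjusted for this. By complex, the NRF-1 letters were in 6 of 26 promoters of complex I, 5 of 12 of complex V and 0 of 10 of complex IV. A match is only a match of letters.

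The first promoter belongs to Sdha, the subunit of complex II that oxidises succinate (chr1:30764303-30764602, plus strand). The second is that of Atp5o (now Atp5po), which links the ATP synthase head to its stalk and had the lowest p of all members (chr11:44657434-44657733, minus strand). The last are those of the complex IV isoforms Cox8a, which most tissues use (chr1:213833574-213833873, minus strand), and Cox8h (now Cox8b), the heart and muscle form (chr1:205408224-205408523, minus strand). Each runs 5′ to 3′ along the gene, with matches in capitals.
Sdha: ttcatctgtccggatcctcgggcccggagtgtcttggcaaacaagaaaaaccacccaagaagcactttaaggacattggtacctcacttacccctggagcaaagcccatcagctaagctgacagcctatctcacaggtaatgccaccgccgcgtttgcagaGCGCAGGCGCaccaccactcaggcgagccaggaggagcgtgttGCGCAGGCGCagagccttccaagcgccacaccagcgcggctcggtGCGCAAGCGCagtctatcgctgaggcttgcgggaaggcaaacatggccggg
Atp5o: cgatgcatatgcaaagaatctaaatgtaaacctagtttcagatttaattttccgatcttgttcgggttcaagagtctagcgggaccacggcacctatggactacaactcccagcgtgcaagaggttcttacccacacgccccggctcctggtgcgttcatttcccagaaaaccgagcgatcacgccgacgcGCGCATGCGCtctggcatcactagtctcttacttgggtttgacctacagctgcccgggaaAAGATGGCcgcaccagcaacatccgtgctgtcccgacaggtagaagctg
Cox8a: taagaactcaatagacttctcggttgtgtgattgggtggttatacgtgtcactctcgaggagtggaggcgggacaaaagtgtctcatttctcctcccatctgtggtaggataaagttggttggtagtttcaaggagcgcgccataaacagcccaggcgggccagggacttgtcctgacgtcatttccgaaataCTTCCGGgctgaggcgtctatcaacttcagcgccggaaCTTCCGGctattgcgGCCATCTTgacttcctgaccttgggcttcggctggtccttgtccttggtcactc
Cox8h: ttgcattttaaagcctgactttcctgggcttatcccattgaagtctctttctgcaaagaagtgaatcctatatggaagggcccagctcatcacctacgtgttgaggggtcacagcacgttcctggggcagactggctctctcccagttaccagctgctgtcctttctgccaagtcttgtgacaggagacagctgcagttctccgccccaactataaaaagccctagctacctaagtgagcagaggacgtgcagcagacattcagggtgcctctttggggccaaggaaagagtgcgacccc
Sdha holds the NRF-1 letters 3 times, and Atp5o holds the NRF-1 and YY1 letters once each. Cox8a holds the ETS letters 2 times and those of YY1 once, all on the other strand. Cox8h holds none of the 3 and has 5 CpG dinucleotides, against 16 in Cox8a.

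No nuclear respiratory chain gene differed between the diets past the threshold. After removal of dim probes, 83 of the 86 probes and 71 of the 72 names could be tested, each name by its brightest probe. With limma and Benjamini-Hochberg adjustment over all 25808 probes tested, 0 of 71 had an adjusted p under 0.05 (0.00775% of all probes and 0.00453% of all 22074 genes did). At an unadjusted p under 0.05 there were also 0 of 71, against 4.07% of all genes, 1.62% higher and 2.45% lower. For all 71 the ranges of the cafeteria and control arrays overlapped, as they did for all but 1.11% of all genes. The unadjusted count was 6 when arrays were weighted by quality (4.67% of all probes passed), 5 of 68 with the authors' values before centring (12.8% of all probes), and 3 without the arrays cafeteria 1 and control 7 (5.35% of all probes). The 71 include 4 names that are not subunits (3 higher and 1 lower) and the Cox8h probe described below. Among the 71, 49 were higher and 22 lower in cafeteria animals (69.0% higher, against 54.8% of all genes). The median log2 fold change was 0.035, against 0.010 over all genes, and with median centring of the arrays in place of loess it was -0.0067.

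The intervals were narrow. The 95% interval lay within 1.5-fold either way for 70 of 71 genes (98.6%, against 91.2% of all genes). The median half-width on the log2 scale was 0.19 for the members and 0.19 for all genes. The members were brighter, with a median log2 signal over both dyes of 12.64, against 8.73 for all genes. The shares were not adjusted for this. The exception was Cox5a, a nuclear subunit of complex IV next to its mitochondrially encoded core, with an interval of -0.65 to 0.21. The median SD over arrays was 0.13 for the members and 0.13 for all genes.

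**Figure D1:**
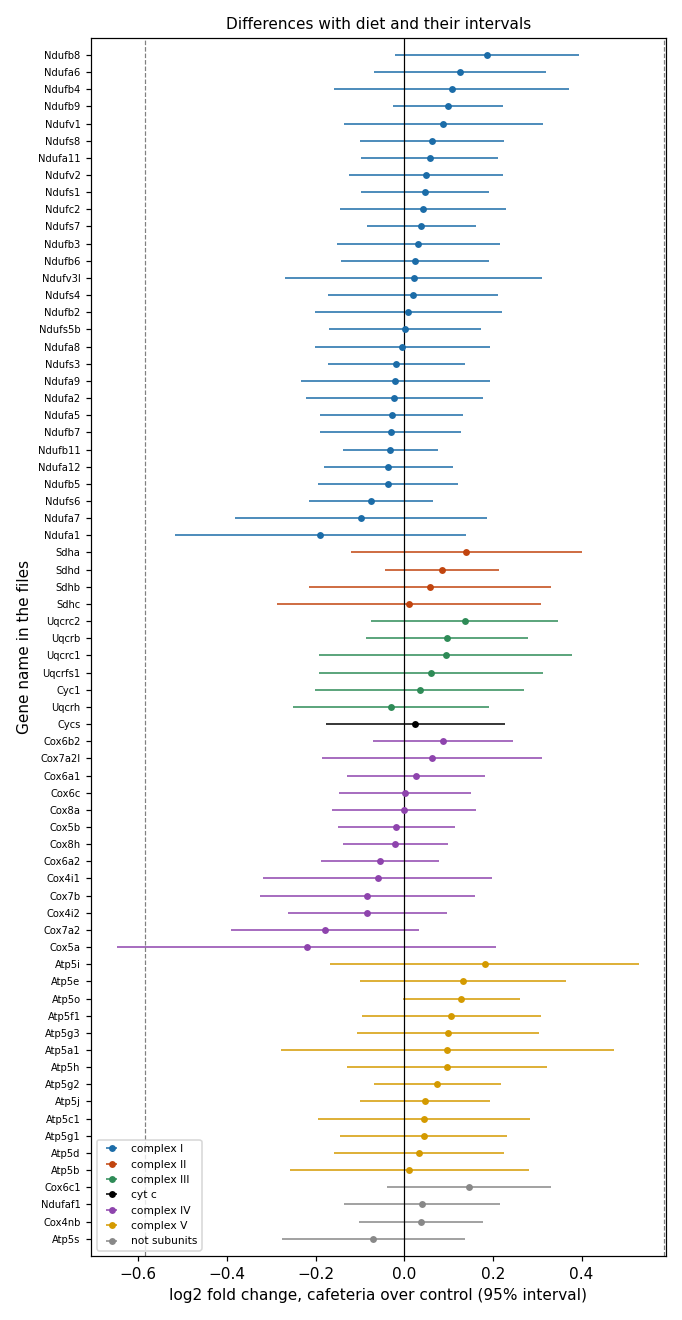
Log2 fold change of cafeteria over control animals for 70 of the 71 tested genes (points) with the 95% interval (bars), coloured by complex and ordered within each. Dashed lines stand at 1.5-fold either way, and the interval of 1 gene, Cox5a, crosses one of them.

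PBMC are a mixture, and in such bulk samples fewer cells of a type and less RNA per cell cannot be told apart. Markers of red cell precursors were higher in cafeteria animals for 6 of 6 tested (median log2 fold change 0.54). Their median ratio ran between -0.58 and -0.042 in cafeteria arrays and between -1.07 and -0.75 in control arrays, without overlap. Markers of T cells were lower for 8 of 8 (median -0.18) and those of B cells higher for 6 of 6 (median 0.28), with overlapping ranges of array medians. Of 8 cytotoxic lymphocyte markers (T and NK cells), 6 were higher (median 0.31), with array medians of -0.24 to 0.50 in cafeteria arrays and -0.50 to 0.059 in control arrays. Platelet markers were lower for 7 of 7 (median -0.41), with array medians of -0.89 to 0.35 in cafeteria arrays and -0.44 to 1.13 in control arrays, the highest on control 4. Markers of monocytes were lower for 6 of 8 (median -0.097), those of neutrophils for 3 of 4 (median -0.25) and those of plasma cells for 4 of 4 (median -0.12), and the ranges of their array medians overlapped. The part of these shifts in the values below was not tested. Between 58.8% and 66.7% of spots had Cy5 signal above background. Slides 3 and 5 each held both diets (cafeteria 1 with control 1, and cafeteria 10 with control 13), and the other slides held 1 array each. Within slide 3 the median difference over the 71 genes was 0.055, within slide 5 it was -0.049, and a fit with the slide as a block gave a median near 0 (5.1e-06), 36 genes higher and 35 lower.

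Complex I, the NADH dehydrogenase, had 30 members, all tested, of which 18 were higher and 12 lower (median 0.021, and -0.017 with median centring). Its 7 nuclear core subunits carry the flavin and the iron-sulphur clusters. Ndufv1, which binds NADH and the flavin, had a log2 ratio of -0.16 ± 0.14 in cafeteria animals and -0.25 ± 0.18 in controls (SD, n = 5 and n = 4), a log2 fold change of 0.088 (SE 0.10). Its partner Ndufv2 had a log2 fold change of 0.049 (SE 0.078), and Ndufs1, the largest iron-sulphur subunit, one of 0.047 (SE 0.065). Near the ubiquinone site, Ndufs7 had a log2 fold change of 0.039 (SE 0.055). Ndufs8, which carries iron-sulphur clusters on the path to ubiquinone, had a log2 fold change of 0.062 (SE 0.073), and Ndufs3 one of -0.018 (SE 0.069). Thus 5 of these 6 were on the positive side, each by less than its SE.

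The other 23 members of complex I are supernumerary subunits, which surround the core and serve its assembly and stability. They split into 12 higher and 11 lower (median 0.0016). The most positive was Ndufb8, a subunit of the membrane arm (chromosome 1, 249597409 to 249597468). Ndufb8 had log2 ratios of 0.12, -0.059, 0.072, -0.33 and -0.17 in cafeteria animals, against -0.27, -0.33, -0.17 and -0.27 in control animals. The cafeteria arrays were spread widely, 3 of them above every control and cafeteria 10 level with the lowest control. Its log2 fold change was 0.19 (SE 0.093, interval -0.022 to 0.39, limma adjusted p = 0.997). Under the alternatives it ran from 0.0295 with median centring to 0.27 with the authors' values before centring (median over all probes 0.13). Ndufa6, which holds a LYR motif and binds the acyl carrier protein, had a log2 fold change of 0.13 (SE 0.087), which was 0.20 without control 7 and -0.0048 with median centring. Ndufb4 had one of 0.11 (SE 0.12), which was 0.0028 without control 4 and -0.066 with median centring.

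The most negative complex I gene was Ndufa1, a small X-linked membrane subunit needed for assembly (chromosome X, 7727730 to 7727789). Ndufa1 had log2 ratios of -0.053, -0.053, 0.072, 0.085 and 0.31 in cafeteria animals, against -0.019, 0.67, -0.016 and 0.41 in control animals. The control arrays fell apart into a high pair, 4 and 13, and a pair near 0. The log2 fold change was -0.19 (SE 0.15, interval -0.52 to 0.14), and it was -0.052 without control 4. Ndufa7 had a log2 fold change of -0.10 (SE 0.13) and Ndufs6, a zinc-binding subunit, one of -0.075 (SE 0.063). The probe of Ndufs6 is placed by the files on chromosome 2, whereas RefSeq places its gene on chromosome 1. Ndufb11 was the steadiest member over the 9 arrays, with log2 ratios of -0.061, 0.028, -0.0068, -0.061 and -0.028 in cafeteria animals, against -0.0088, 0.029, 0.019 and -0.014 in control animals. Its SD over all arrays was 0.034, and its log2 fold change was -0.032 (SE 0.048).

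Complex II, the succinate dehydrogenase, is encoded wholly in the nucleus, and its 4 subunits were tested and 4 of 4 were higher. Its median was 0.071, and 0.010 with median centring. With the authors' values before centring it was 0.24, against 0.13 over all probes. Sdha, the flavoprotein whose promoter is printed above, had log2 ratios of 0.34, 0.13, 0.080, 0.15 and -0.082 in cafeteria animals, against -0.029, -0.32, 0.24 and 0.041 in control animals. The groups overlapped, with the lowest value on control 4 and the highest on cafeteria 1. The log2 fold change of Sdha was 0.14 (SE 0.12, interval -0.12 to 0.40), and it was 0.038 without control 4 and 0.011 with median centring. Sdhb, the iron-sulphur subunit, had log2 ratios of -0.33, 0.16, 0.044, 0.084 and 0.022 in cafeteria animals, against -0.026, 0.088, -0.38 and 0.067 in control animals. Cafeteria 1 and control 7 were the low arrays, each in its own group far below the rest, and the log2 fold change was 0.058 (SE 0.12), -0.047 without control 7 and -0.15 with slide as a block. The membrane anchors were Sdhc, with a log2 fold change of 0.011 (SE 0.13), and Sdhd, with 0.084 (SE 0.057). In Sdhc the same arrays stood out in the other direction, cafeteria 1 at 0.52 and control 7 at 0.52, while the others lay between -0.017 and 0.29, and without cafeteria 1 the log2 fold change of Sdhc was -0.067.

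Complex III, the cytochrome bc1 complex, had 6 nuclear members, of which 5 were higher (median 0.076, and -0.018 without control 7, below 0 also with slide as a block). Of the electron carriers, the Rieske protein Uqcrfs1 had a log2 fold change of 0.060 (SE 0.11) and cytochrome c1 (Cyc1) one of 0.035 (SE 0.11). Uqcrc1, a core protein that faces the matrix, had log2 ratios of -0.46, -0.041, -0.22, -0.14 and -0.32 in cafeteria animals, against -0.20, -0.15, -0.73 and -0.24 in control animals. Control 7 was the lowest and cafeteria 1 the next, and the log2 fold change was 0.093 (SE 0.13). The other core protein, Uqcrc2, had log2 ratios of 0.054, -0.0037, 0.40, -0.076 and 0.032 in cafeteria animals, against 0.031, -0.078, -0.15 and -0.027 in control animals. Its log2 fold change of 0.14 (SE 0.095) was 0.057 without cafeteria 7, the one high array. The small subunits Uqcrb, which helps to form the ubiquinone site, and Uqcrh, the acidic hinge protein, had log2 fold changes of 0.10 (SE 0.082) and -0.030 (SE 0.10).

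Cytochrome c (Cycs), which carries electrons to complex IV and triggers apoptosis when released, had a log2 ratio of -0.076 ± 0.094 in cafeteria animals and -0.10 ± 0.18 in controls (SD, n = 5 and n = 4). Its log2 fold change was 0.025 (SE 0.090), and its 3 probes gave log2 fold changes between -0.020 and 0.025.

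Complex IV, the cytochrome c oxidase, was the one complex with more members lower than higher, 8 lower and 5 higher. Its median was -0.020, which is the value of the Cox8h probe described below. Without that probe 7 were lower and 5 higher (median -0.036). With the authors' values before centring the median was 0.090, against 0.13 over all probes. With only probes above background on all 9 arrays, the median of complex IV genes was -0.055. Its log2 fold changes lay within 0.1 of 0, with the exception of 2 negative ones. Cox5a (chromosome 8, 61276320 to 61276379) had log2 ratios of 0.0032, -0.38, -0.38, 0.17 and 0.34 in cafeteria animals, against -0.17, 0.59, -0.022 and 0.28 in control animals. Cox5a varied most of all members, with an SD of 0.33 over the arrays, and each group held both high and low arrays. The log2 fold change of Cox5a was -0.22 (SE 0.19, interval -0.65 to 0.21), -0.080 without control 4 and 0.029 with slide as a block. Cox7a2, the non-muscle isoform of subunit VIIa (chromosome 8, 84813316 to 84813375), had log2 ratios of 0.10, -0.13, -0.15, -0.11 and 0.10 in cafeteria animals, against -0.069, 0.35, 0.17 and 0.10 in control animals. The highest value was on control 4, and control 1 lay within the cafeteria range. The log2 fold change was -0.18 (SE 0.095, interval -0.39 to 0.034), and -0.11 without control 4. Under the alternatives it ran from -0.28 with median centring to -0.025 with slide as a block.

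Several complex IV subunits come as tissue isoforms, and their probes differed in how far they stood above background. The general forms Cox4i1, Cox6a1 and Cox8a were above background on 9 of 9 arrays. Cox4i1, which takes part in the control of the enzyme by ATP, had log2 ratios of -0.17, -0.044, -0.085, -0.045 and -0.11 in cafeteria animals, against 0.085, 0.14, -0.45 and 0.11 in control animals. Control 7 was far below the other controls, and the log2 fold change of -0.059 (SE 0.12) became -0.20 without it. Cox6a1 had a log2 fold change of 0.026 (SE 0.070), and Cox8a, at a log2 ratio of -0.34 ± 0.092 in cafeteria and -0.34 ± 0.12 in control animals (SD, n = 5 and n = 4), had an interval of -0.16 to 0.16. The lung form Cox4i2 was above background on 9 of 9 arrays with a log2 fold change of -0.084 (SE 0.080), and the heart and muscle form Cox6a2 on 9 of 9 with one of -0.055 (SE 0.060). Cox6b2, the testis form, was above background on 5 of 5 cafeteria and 3 of 4 control arrays, with a log2 fold change of 0.087 (SE 0.070). Being above background does not show that an isoform was measured. Second probes of Ndufb3, Ndufc2 and Cox5a, which the files place on the strand opposite to the brightest probe of the same gene, were also above background on 9 of 9 arrays. Their mean log2 signal over both dyes was 7.53, 7.69 and 8.04, against 9.74 for Cox4i2, 8.65 for Cox6a2 and 7.54 for Cox6b2, which gives no order of transcript levels.

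The muscle form Cox8h was read by 3 probes. The probe matched to RefSeq by its accession (chromosome 1, 201057360 to 201057419) was not well above background on any of the 9 arrays. The other probes, placed by the files on the opposite strand, were above background on 3 and on 8 of the 9 arrays, and only the second was tested (log2 fold change -0.020, SE 0.053). Since the files place that probe on the other strand, its value is not taken as a level of the Cox8h transcript. Cox7a2l, a factor that joins complexes III and IV, had a log2 fold change of 0.062 (SE 0.11). No probe carried the names Cox7a1, Cox8c, Ndufa4 or Ndufa4l2, and these were not analysed here.

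Complex V, the ATP synthase, had 13 members, and 13 of 13 had a positive log2 fold change (median 0.096, and -0.0050 with median centring or -0.020 with slide as a block), although 0 of 13 passed the unadjusted threshold. The count depended on the arrays and on the scaling. It was 8 without control 7, 10 without cafeteria 1 and control 7, 6 with median centring and 5 with slide as a block. The median difference over the complex was -0.056 within slide 3 and -0.027 within slide 5.

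Among the members of complex V, the peripheral stalk subunit Atp5o (chromosome 11, 31914421 to 31914480) had the lowest unadjusted p of all 71. Atp5o had log2 ratios of 0.050, 0.15, -0.0097, -0.049 and 0.042 in cafeteria animals, against -0.042, -0.18, -0.048 and -0.10 in control animals. The 4 highest values came from cafeteria arrays, and cafeteria 10 lay among the controls. The log2 fold change was 0.13 (SE 0.059, interval -0.0036 to 0.26, limma adjusted p = 0.997). Under the alternatives it ran from 0.0003 with median centring to 0.24 with the authors' values before centring (median over all probes 0.13). The membrane subunit Atp5i (now Atp5me, chromosome 14, 1868395 to 1868454), which takes part in dimers of the enzyme, had log2 ratios of 0.55, 0.14, 0.51, -0.091 and 0.35 in cafeteria animals, against 0.11, -0.22, 0.43 and 0.13 in control animals. Its arrays ran over a wide range in both groups, with an SD of 0.27, and the log2 fold change was 0.18 (SE 0.16), 0.072 without control 4 and 0.0001 with median centring.

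The catalytic head of the enzyme had signs that depended on single arrays and on the fit or scaling. Atp5a1, the alpha subunit, had log2 ratios of -0.32, 0.0025, -0.038, 0.26 and -0.52 in cafeteria animals, against -0.071, -0.29, -0.57 and 0.044 in control animals. Control 7 and cafeteria 13 were the lowest, and the log2 fold change of 0.10 (SE 0.17) was -0.019 without control 7. With slide as a block it was -0.0195. Atp5b, the beta subunit that makes the ATP, had a log2 fold change of 0.011 (SE 0.12), which was -0.081 without control 7. It was -0.029 with median centring and -0.11 with slide as a block. Of the central stalk, Atp5d had a log2 fold change of 0.034 (SE 0.086) and Atp5e one of 0.13 (SE 0.10). The probe of Atp5e is placed by the files on chromosome 14, whereas RefSeq places its gene on chromosome 3. The ring of c subunits, which turns as protons pass, is made from 3 genes with 1 mature product. Atp5g1 had a log2 fold change of 0.044 (SE 0.084), Atp5g2 one of 0.074 (SE 0.064) and Atp5g3 one of 0.10 (SE 0.092). Atp5g3 had log2 ratios of -0.31, 0.12, 0.10, 0.10 and 0.11 in cafeteria animals, against -0.048, -0.030, -0.080 and -0.13 in control animals. Outside cafeteria 1, the cafeteria values lay above the controls, and without that array the log2 fold change was 0.18 (limma adjusted p = 0.643). With slide as a block the log2 fold change of Atp5g3 was -0.011. Its dimmer second probe had a log2 fold change of 0.058, and there cafeteria 4 (0.117) lay below control 7 (0.124).

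**Figure D2:**
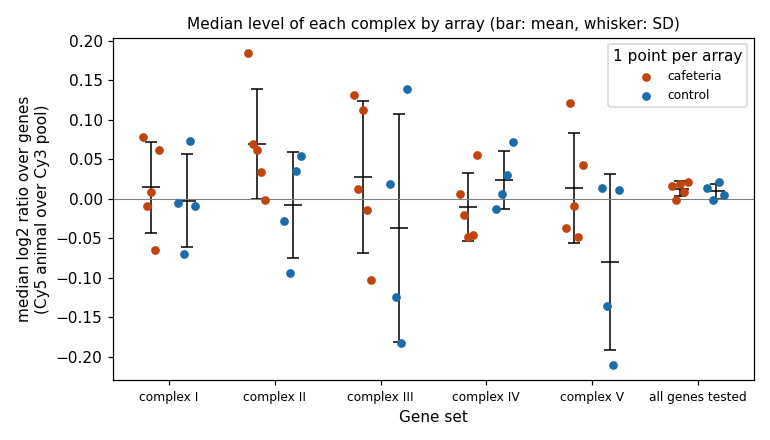
Median log2 ratio to the pool over the genes of each complex, and over all genes tested, with 1 point per array, cafeteria left of control. Bars give the mean and whiskers the SD of the array medians (n = 5 and n = 4): in complex V they were 0.013 ± 0.070 in cafeteria and -0.080 ± 0.11 in control arrays, and control 7 was the lowest at -0.21.

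The 5 names that are not subunits were few enough to give in full, and were named after their values were seen. Ndufaf1, an assembly factor of complex I, had a log2 fold change of 0.040 (SE 0.079). Cox4nb, the neighbour of Cox4i1 and now Emc8, had one of 0.038 (SE 0.062), Atp5s, now Dmac2l, -0.070 (SE 0.092), and Cox6c1, a pseudogene in RefSeq, 0.15 (SE 0.083). The dim Cox6c1 probe was above background on 5 of 5 cafeteria and 2 of 4 control arrays. It thus passed the filter only through the group in which it was higher. The probe named Cox6b, which the file describes as another gene, was above background on 0 of 9 arrays and was not tested.

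Single arrays stood apart from their groups across many members. The SD over the 71 genes within an array was 0.22 in cafeteria 1 and 0.28 in control 7, against 0.13 to 0.20 in the others. These arrays were also the widest over all 22074 genes, at 0.29 and 0.27, against 0.13 to 0.25. Over all 22074 genes, cafeteria 1 and control 7 were the most alike of all pairs of arrays (r = 0.57), although they differed in diet, slide and session of the scanner software. They were also the most alike across the members (r = 0.86 over 71 genes). This correlation is a description: the genes are not independent, both arrays share the reference pool, and the pair was picked after the values were seen. The ratios were not centred by gene, so genes away from 0 on all arrays can add to it. The correlation was 0.95 with median centring and 0.67 with the scanner software's own log ratio. Below -0.2 on both arrays were 8 genes: Uqcrc1, Atp5a1, Ndufa9, Sdhb, Atp5g1, Atp5g2, Cox7a2l and Cox8a. Above 0.2 on both were 10, among them Sdhc, Cox7b, Ndufa2, Atp5i and Atp5e. Subunits of 1 complex thus lay on both sides: in complex II, Sdhb was low and Sdhc high, and in complex V, Atp5a1 was low and Atp5i high. Some of the listed genes were not particular to this pair. Over all arrays, Cox8a lay between -0.48 and -0.20 and Atp5g2 between -0.39 and -0.12. Atp5e was above 0.2 also on cafeteria 4, cafeteria 7 and control 13.

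**Figure D3:**
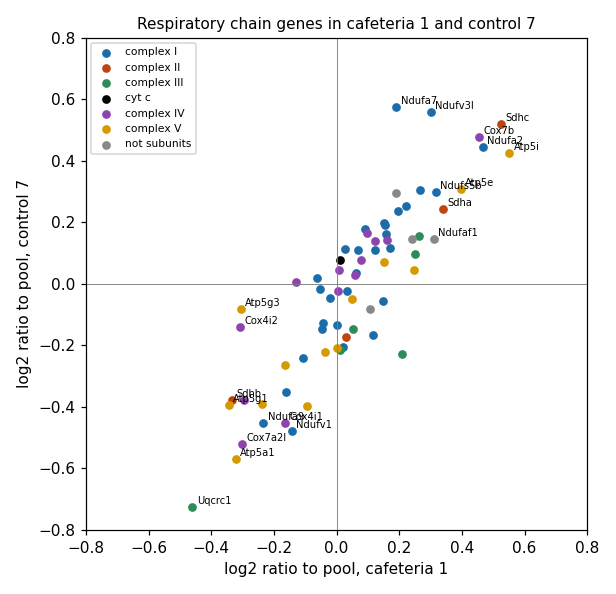
Log2 ratio to the pool of each of the 71 genes in cafeteria 1 (horizontal axis) and control 7 (vertical axis), coloured by complex. The points lie along a rising line (r = 0.86), from Uqcrc1 at -0.46 and -0.73 to Sdhc at 0.52 and 0.52.

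Other pairs, within and across diets, were also alike over the members. Cafeteria 13 and control 7 correlated with r = 0.70 over the members (0.34 over all genes) and cafeteria 10 and control 13, which shared slide 5, with 0.64 (0.22). Within the cafeteria group, cafeteria 4 and cafeteria 7 correlated with r = 0.65 (0.24) and cafeteria 1 and cafeteria 7 with 0.64 (0.46). The lowest was that of cafeteria 7 and control 4, with r = 0.050 (-0.16 over all genes). Control 4 held the highest values of Ndufa1, at 0.67, and Cox5a, at 0.59, and the lowest of Ndufb4, at -0.50.

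**Figure D4:**
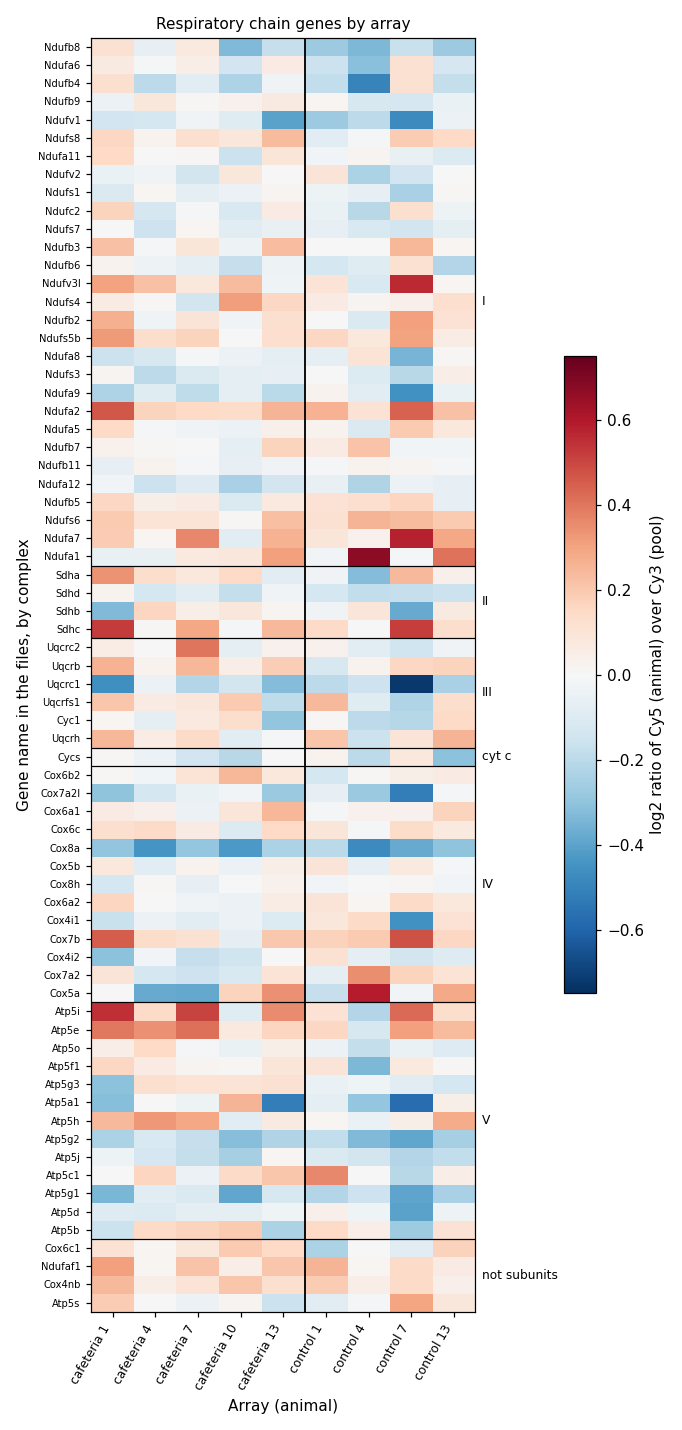
Log2 ratio to the pool of 70 of the 71 tested genes (rows, by complex) on the 9 arrays (columns, cafeteria left of the line and control right of it). The groups overlap in every row, and columns cafeteria 1 and control 7 share their reds and blues.

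The mitochondrially encoded partners could be set beside these values. The 17 tested probes of 7 such subunits (ND2, ND5, CYTB, COX1, COX2, COX3 and ATP6) had a median log2 fold change of 0.034, with a range of -0.10 to 0.15, and 0 of 17 had an unadjusted p under 0.05.

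Of the genes that build, regulate or feed the chain, 1 in each of 3 lists had an unadjusted p under 0.05 (4.07% of all genes did) and 0 an adjusted one. Of 47 names listed as assembly factors, 29 were tested, with 19 higher and 10 lower. The list held Atp5if1, an inhibitor of the ATP synthase and no assembly factor, also under its older name Atpif1. It also held Ndufaf1, which is counted among the members as well. The 1 under 0.05 was Ndufaf3, needed for early assembly of complex I, with a log2 fold change of 0.16 (SE 0.068, limma adjusted p = 0.997). Of 22 regulators of mitochondrial gene expression, 19 were tested, with 13 higher and 6 lower. The regulator under 0.05 was Ppargc1b, a coactivator of NRF-1 and the oestrogen-related receptors, with a log2 fold change of -0.27 (SE 0.10, limma adjusted p = 0.997). The last list of 21 genes held other donors of electrons to ubiquinone, genes of ubiquinone synthesis and proton leak, and also Aox1 and Nnt. Of these, 16 were tested, with 14 higher and 2 lower (median 0.076). Nnt, the proton-driven transhydrogenase that makes NADPH, had log2 ratios of 0.084, -0.040, 0.16, 0.17 and -0.038 in cafeteria animals, against -0.21, -0.27, -0.050 and -0.47 in control animals. The groups did not overlap, and the log2 fold change was 0.32 (SE 0.089, limma adjusted p = 0.978).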

How the data were processed

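Agilent rat arrays (2 colours) of 9 animals were read with the scanner software, version 9.5.1.1, per the file headers. The scanner files deposited by the authors give spot and background intensity for both dyes, quality flags (scored 0 or 1 by the software, per the file headers), and a log10 ratio after the software's own normalization, per the file headers. A value table deposited by the authors holds log2 values that followed Cy5 (rank correlation 0.993 to 0.999) with medians of 9.40 to 9.69, filled for 21466 of 45220 rows. It was not centred, and its use of the reference is unknown.

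Intensities were background-corrected (normexp, offset 50) and loess-normalized within arrays with control spots at weight 0. Flagged spots were left out, and probes kept with Cy5 above background on at least 4 arrays. Groups were compared with limma 3.58.1 (statmod 1.5.0, data.table version 1.17.8, R 4.3.3), on 7 residual degrees of freedom plus a prior of 2.94, and p-values adjusted after Benjamini and Hochberg. Summaries and figures used Python 3.11.15, pandas 2.3.3 and matplotlib 3.10.9. The fit was tested on simulated data. The number of arrays limits the precision. The p-values set the difference between groups against the spread between these arrays. With 1 array per animal, the parts of animals and of arrays in that spread cannot be told apart. Probe positions are on rn4, and no exon or untranslated region was given. Symbols were updated through RefSeq (85 of 86 member probes matched).

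Genes were named by p, non-overlap, the 3 most positive and negative per complex, tissue isoforms, core and catalytic subunits, the 3 largest and smallest SDs, and disagreeing probes (over 0.3), and other pathway genes at an unadjusted p under 0.05. Members, lists and markers were chosen with earlier results of these data known. The values of 1 member gene are not reported here. Alternatives are given in the closing section.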

Additional observations from a re-analysis of the deposited data

Results flagged for a closer look

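In 5 of 98 groups of values, each a named gene or the median of a complex in 1 diet, 1 array lay far from the rest of its group by Dixon's criterion, which chance meets in about 1 of 20 groups. Cafeteria 1 was low in 2 genes. Atp5g3, a source of the c ring of complex V, was at -0.31 on it, against 0.10 to 0.12 on the other cafeteria arrays. Sdhb, the iron-sulphur subunit of complex II, was at -0.33, against 0.022 to 0.16. Cafeteria 7 was high in Uqcrc2, a core protein of complex III, at 0.40, against -0.076 to 0.054. Control 7 was low in 2 genes. Uqcrc1, the partner of Uqcrc2, was at -0.73, against -0.24 to -0.15 on the other control arrays. Cox4i1 of complex IV was at -0.45, against 0.085 to 0.14.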

How the results depend on the processing

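Under 26 alternatives, 0 respiratory chain genes had an adjusted p under 0.05. Over all probes that count was 2, and 0 with no background correction, median centring, the scanner software's log ratio, Cy5 alone, the authors' values with or without centring, slide as a fixed block, array weights, a trended and robust prior, or without both cafeteria 1 and control 7, and 3 with the session of the scanner software as a block. It was 0 to 2 with 1 array left out, dropping to 0 without cafeteria 1, 10 or 13 or control 4 or 7 and to 1 without cafeteria 7 or control 1. Of the 71 members, 0 had an unadjusted p under 0.05. That count was 1 with Cy5 alone, 1 with no filter and 1 with the trended and robust prior (Atp5o each time), 1 with members taken by RefSeq symbol (Ndufaf3), 5 of 68 with the authors' values, 1 of them Cox4nb, which is no subunit, 6 with array weights, 3 without cafeteria 1 and control 7, and 0 to 2 with 1 array left out. The 3 without both arrays were Ndufa6, Cox4i1 and Atp5g3 (5.35% of all probes passed). Without control 7 alone there were 2, Ndufa6 and Cox4i1 (4.61% of all probes). With the authors' values, 12.8% of all probes passed and the median over all probes was 0.13. The members' median of 0.035 was -0.0067 with median centring, 0.18 with the authors' values (0.053 after centring), and 0.018 to 0.046 with 1 array left out. The count of positive complex V genes was 6 with median centring, 5 with slide as a fixed block, and 8 to 13 with 1 array left out, 8 without control 7. Of 1138 values of the 44 named genes, 117 changed sign and 47 moved by over 1 SD. The software session and random slide blocks, members by RefSeq symbol, the complex V count, and leaving out both arrays or the Cox8h probe were chosen after seeing the data. The causes were not tested.

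The replicate numbers 1, 4, 7 and 13 occur in both groups. Same-numbered arrays had correlated deviations of -0.048, 0.11, 0.099 and -0.15, so the numbers were not taken to pair animals, and cafeteria 1 was most like control 7. With the replicate block, 0 probes had an adjusted p under 0.05 and 2 members, Ndufb8 and Atp5i, an unadjusted one.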

Other observations

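Some subunits and helpers of the respiratory chain are filed on the array under older names, and 13 genes with a family symbol only in RefSeq were tested besides the 71. The most negative was Atpif1 (now Atp5if1), the inhibitor that keeps the ATP synthase from running backwards, with a log2 fold change of -0.38 (SE 0.27, limma adjusted p = 0.997). The complex V subunit Atp5mg, filed as MGC72942, had one of -0.15 (SE 0.080), and Atp5mk, filed as Usmg5, one of 0.079 (SE 0.10). The complex V count of 13 of 13 thus covers the names the rule took, and Atp5mg lies on the other side. These genes were picked after their values were seen.

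Of the 10 member genes with several tested probes, 6 had probes of opposite sign, but only in Cox5a did probes differ by over 0.1. Its bright probe had a log2 fold change of -0.22, against 0.035 for a dim probe that the files place on the opposite strand.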
